A study of Mus musculus with 10 samples.

Results

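The cytosolic ribosomal protein genes code for the proteins that, with the ribosomal RNAs, make up the large and the small subunit of the ribosome outside the mitochondria. They were taken from the authors' gene table as the rows whose symbol begins with Rpl or Rps followed by a digit, by a final a (Rpsa) or by p and a digit (the stalk proteins), without the kinases of the Rps6k family and the rows named as pseudogenes with -ps, and with a base mean of at least 10. This gave 84 genes of the 25232 rows in the table, and 84 of the 15918 rows that reach a base mean of 10, referred to below as expressed genes. Of these, 49 were named as large subunit genes (Rpl) and 35 as small subunit genes (Rps).

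The large subunit joins amino acids and lets the new chain leave through its exit tunnel, and the small subunit holds the mRNA and reads it. A mature ribosome carries each protein in fixed proportion, nearly all of them once, with the stalk proteins P1 and P2 as an exception. The mRNAs of these proteins begin with an oligopyrimidine tract at their 5′ end, known as a TOP motif, through which mTOR and Larp1 control their translation, so their mRNA level is not a measure of how much protein is made.

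The study sequenced RNA of the lumbar spinal cord of C57BL/6 female mice (C57BL/6J background, per the study's methods) at 90 days of age. There were 5 wild-type (WT) mice and 5 SOD1 G93A mice, in which human SOD1 with the G93A mutation is expressed from a multi-copy transgene, and which are used as a model of amyotrophic lateral sclerosis. The transgene is not limited to motor neurons, so these mice do not show the action of the mutation in a chosen cell type. The value used here is the base mean, the authors' mean over all 10 libraries of counts scaled by library size factors. It pools WT and SOD1 G93A mice, so no difference between the genotypes, no spread between mice and no depth of a library could be given from it. Every value below describes the 10 libraries together. The authors' own comparison of the genotypes was not used.

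The tissue label was checked against markers of the cells of the spinal cord. Snap25, a synaptic vesicle fusion protein of neurons, had a base mean of 59050, and Mbp, a myelin protein of oligodendrocytes, reached 319615. Gfap of astrocytes stood at 56290, Csf1r of microglia at 3041 and Slc18a3, the vesicular acetylcholine transporter of motor neurons, at 1170. No marker of neurons, motor neurons, oligodendrocytes, astrocytes, microglia or endothelial cells was at 0, with Mnx1 of motor neurons the lowest among them at 37.3. Genes of muscle were detected too, with a summed base mean of 562 over the 3 skeletal muscle genes, led by Acta1 at 251. The 3 testis genes summed to 7.39, with Prm1 the highest and Tnp1 listed at 0. The 3 globin genes Hba-a1, Hbb-bs and Hbb-bt were listed at 0.

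Ribosomal protein genes stood high in this tissue as a group. The 84 genes made up 0.528% of the expressed genes and held 1.05% of the sum of all base means, 0.605% in the large and 0.441% in the small subunit. To compare genes with each other, the base mean was divided by the length of a representative annotated transcript, and values are given per kilobase. The median was 2506 per kilobase over the 49 large subunit genes and 3077 over the 34 small subunit genes with an annotated transcript, against 174 over all 15624 expressed genes with a transcript. These medians were 14.4 and 17.6 times that of all expressed genes. Ribosomal protein transcripts are short, and without division by length the median base means, 2343 and 2727, were 4.56 and 5.31 times the 514 of all expressed genes. The large subunit median was 0.814 times the small subunit median, and genes are not replicates, so this ratio has no test. In a piece of tissue, the number of cells and the RNA per cell cannot be told apart behind these levels.

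The 84 genes were not all ribosomal proteins of the standard set. Of the 79 standard genes considered here, 46 large and 33 small, 75 were among them, 44 in the large and 31 in the small subunit. The standard genes Fau and Rack1 have symbols outside the pattern, and Rpl26 and Rpl30 were under the base mean of 10. The 9 further genes were the paralogs Rpl3l, Rpl7l1, Rpl22l1, Rpl36al, Rps4l and Rps27l, the retrotransposed copies Rpl37rt and Rps23rg1, and Rps19bp1, a nucleolar protein that binds Rps19 and is not part of the ribosome. Of the 75 standard genes, 69 were above 90% of the expressed genes per kilobase, and 60 were above 95%.

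At the top of the large subunit stood Rplp1, a protein of the stalk that recruits the elongation factors, at 11877 per kilobase and a base mean of 5927. Rpl3, which sits near the peptidyl transferase centre, followed at 7033 per kilobase. Rpl19, which forms a bridge to the small subunit, reached 6850, and Rpl4, which lines the exit tunnel, 6362. The fifth was Rpl41, the smallest protein of the ribosome, at 6278. Before division by length the order was another one, with Rpl4 at a base mean of 9785 and Rpl3 at 9502, the highest of the 84 genes.

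The 3 stalk genes were not level with each other. Rplp1 was 5.10 times as high per kilobase as Rplp2, at 2330, and 3.58 times as high as Rplp0, the base of the stalk, at 3315. Over coding length the ratio of Rplp1 to Rplp2 was 2.66, because the annotated transcript of Rplp2 had 964 bases and that of Rplp1 499 while their coding parts had 345 and 342 bases. Rplp1 lies at chr9:61913283-61914510 in the mouse build GRCm38.

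In the small subunit, Rps29, a short zinc-binding protein of the head, stood highest at 10208.5 per kilobase and a base mean of 3981. This was 2.92 times the median of the 31 standard small subunit genes. Rps15, also in the head of the subunit, followed at 7967, Rps3a1 at 5479, and Rps6, the target of the S6 kinases, at 5268. Rps9, which lies by the channel where the mRNA enters, reached 5098. Rpsa, the protein also known as the laminin receptor, had the highest base mean of the small subunit, 8147, and 4204 per kilobase.

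**Figure D1:**
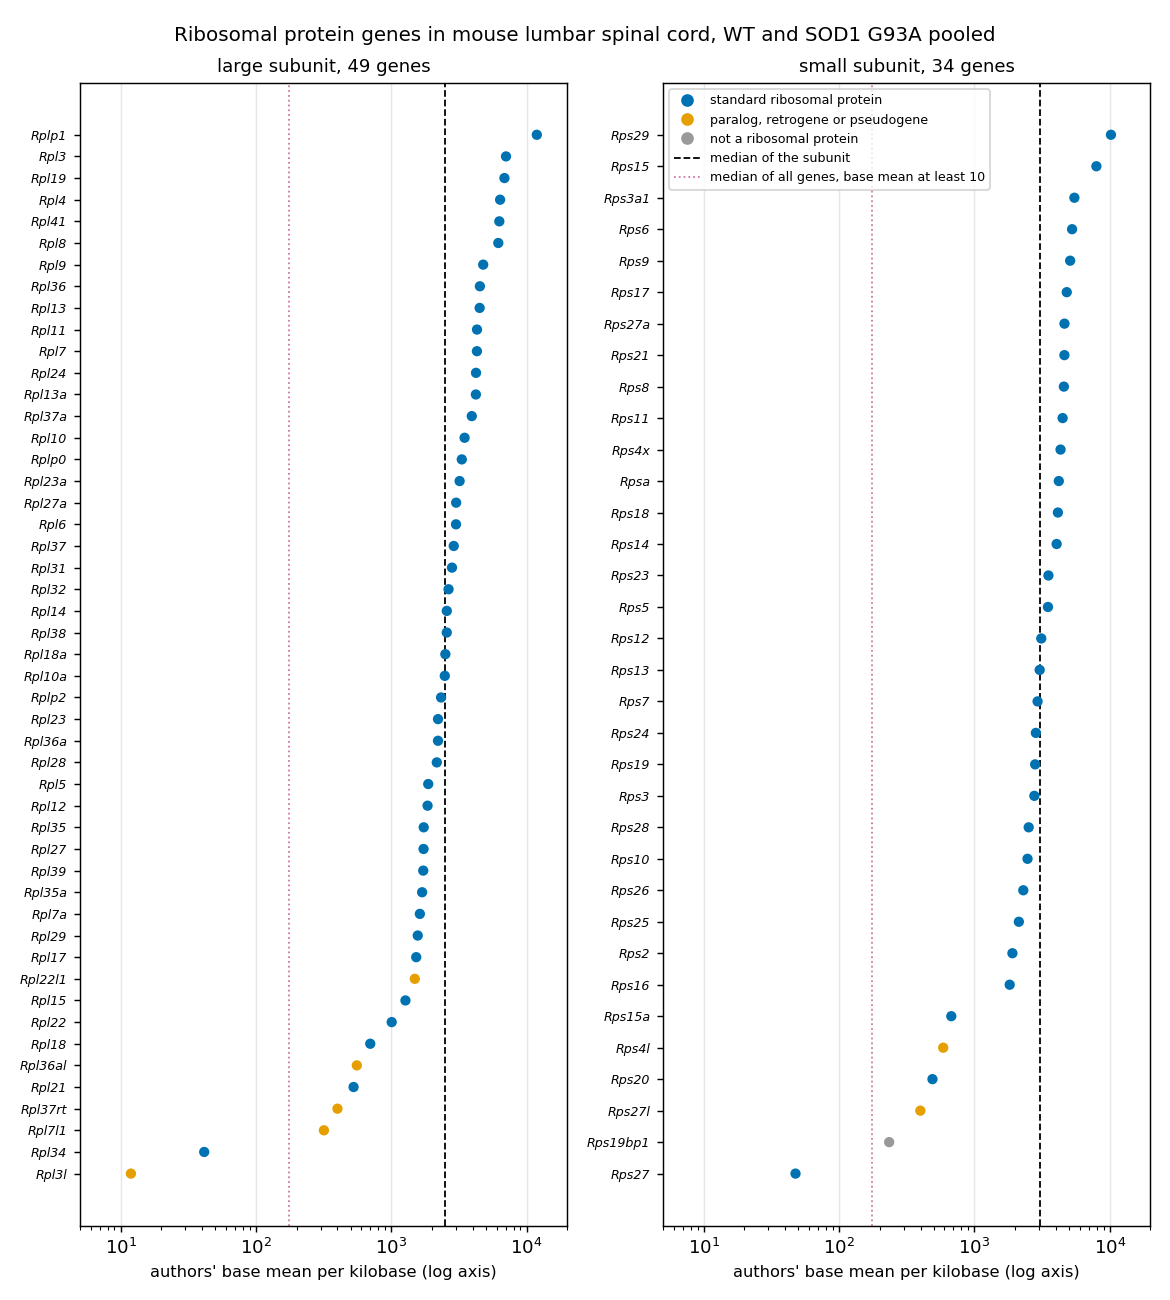
Each point is the authors' base mean per kilobase of annotated transcript (log axis), pooled over 5 WT and 5 SOD1 G93A mice, for the 49 large and 34 small subunit genes with a transcript. Dashed lines mark the subunit medians of 2506 and 3077 and the dotted line the median of all expressed genes, 174, with Rplp1 and Rps29 at the top and Rpl3l, Rpl34 and Rps27 below the dotted line.

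Around these medians most standard genes lay close together. Of the 44 standard large subunit genes, 33 were within a factor of 2 of their median of 2608 per kilobase, 6 were above and 5 below. Of the 31 standard small subunit genes, 26 were within that factor of their median of 3497, with 2 above, Rps29 and Rps15, and 3 below. The genes at the 90th percentile were 4.63 times as high per kilobase as those at the 10th in the standard large subunit and 2.89 times as high in the small one, against 64.1 times over all expressed genes. The large subunit values leave out Rpl26 and Rpl30, at 0 and 3.51 per kilobase, and the spread would be wider with them. The ratio of the 90th to the 10th percentile was 6.24 in the mitochondrial large subunit, 4.72 in the mitochondrial small subunit and 4.81 in ribosome assembly genes. A ratio far under that of all expressed genes was thus not particular to the cytosolic genes. The standard deviation of log2 values per kilobase was 1.32 over the 75 standard genes and 0.982 over the mitochondrial ones.

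The low end of this order rested in part on transcript length. Rps20 had 490.0 per kilobase over a transcript of 3706 bases, but 5087 over its 357 coding bases, which placed it 20th of 33 small subunit genes. Rps15a, at 675 per kilobase of a transcript of 5179 bases, ranked 5 of 33 over its 390 coding bases at 8964. Rpl21 stayed low on both scales, with 526 per kilobase of transcript and 2034 per kilobase of coding sequence. Over coding length Rpl41, with 75 coding bases, led the large subunit at 48717, followed by Rplp1 at 17330, and Rps29 still led the small subunit at 23698. Across the 75 standard genes the Spearman correlation of the 2 scales was 0.656. It describes the genes in this table, and genes are not independent replicates.

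Some standard genes stood far below the rest. Rpl26, at the mouth of the exit tunnel, was listed at 0, Rpl30 had a base mean of 3.11, Rps27 of 16.4 and Rpl34 of 25.9. The next standard gene above them was Rpl35a at 876, so 75 of the 79 standard genes lay between 876 and 9785 and 4 below 26. All 4 are standard parts of the ribosome that cells in general use. In GRCm38, Rpl26 lies at chr11:68901566-68904534, Rpl30 at chr15:34440505-34443276, Rps27 at chr3:90212667-90213648 and Rpl34 at chr3:130726827-130730398, and all 4 are annotated as protein coding.

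Ribosomal protein genes have many processed copies in the genome, and the authors kept only reads that mapped to 1 place, so sequence shared with other genes was measured. For each gene it is the percent of all 100-base windows of its transcript, the length of a read, that also occur without a mismatch in a transcript of another annotated gene. The median was 31.9% over the 79 standard genes and 0% over all 15578 expressed genes for which it could be computed. At least 1 such window was found in 74 of the 79 standard genes, and in 13.9% of the expressed genes. Over 50% of the windows were shared in 25 of the 79, or 31.6%, against 1.95% of the expressed genes.

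Counted over all annotated genes, the share of shared windows showed little relation to the level among the standard genes. Rps27 had the highest share, 98.4%, with Rps27rt and 1 other gene. Rps27rt is a copy on chromosome 9 that was listed at 0 and whose coding sequence was 100% identical over 252 bases. Rpl26 shared 31.0% of its windows, Rpl30 19.4% and Rpl34 22.5%, none of them above the median. Rpl9, by contrast, shared 87.0% of its windows with 7 other genes and had a base mean of 3521, and Rpl10a shared 87.1% and had 1810. Rpl3 shared 79.4% and was among the highest of the 84. No gene that shared windows with Rpl9, Rpl10a or Rpl3 was a row of the authors' table. Rpl26, Rpl30 and Rpl34 each shared windows with 1 row, Gm15772, Gm12191 and Rpl34-ps1, listed at 0 like Rps27rt. For other standard genes with such rows, the main one was above 0, as Rpl31-ps12 at 0.680 for Rpl31. This split was seen after the values were known. The Spearman correlation between the share and the level per kilobase was 0.149 across the 79 standard genes. Copies that differ by a few bases, copies that are not annotated, the pairing of the reads and the authors' own gene models were not part of this measure. The part of read sharing in the low values of Rpl26, Rpl30, Rpl34 and Rps27 was not tested.

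**Figure D2:**
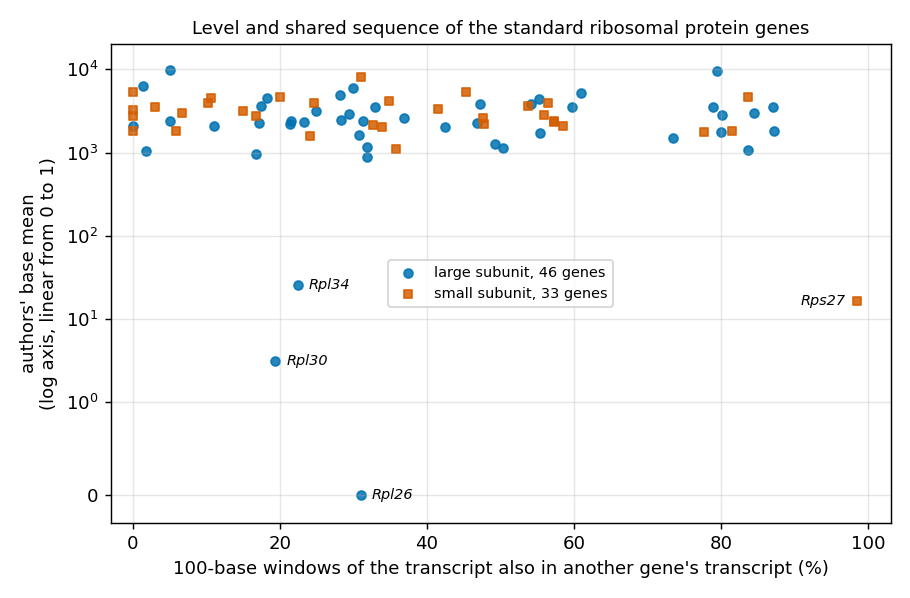
Each point is a standard ribosomal protein gene, 46 of the large and 33 of the small subunit, including Fau and Rack1. The horizontal axis is the percent of its 100-base windows found in another gene's transcript, and the vertical axis the authors' base mean over 10 libraries (log axis, linear from 0 to 1), with 75 genes between 876 and 9785 at shares from 0% to 87.1%, Rps27 alone above these shares at 98.4%, and Rpl26, Rpl30, Rpl34 and Rps27 below 26.

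Exons that overlap another gene are a further place where reads may not be given to 1 gene. The transcript of Rpl24 lay over exons of an annotated gene on the same strand for 71.5% of its bases, that of Rpl13a for 59.3% and that of Rps10 for 53.6%. Their base means were 2859, 4411 and 2190, so they were not among the low genes. Of the 79 standard genes, 5 had over 10% of their bases in such overlaps. Rpl30 overlapped D730044K07Rik on the other strand for 57.4% of its bases, while Rpl26, Rpl34 and Rps27 had no such overlap on either strand. Overlaps on the other strand of like extent were found in genes that were not low, such as Rpl35 with 68.3% and a base mean of 1641, Rpl23a with 55.4% and 1789, and Rps25 with 52.2% and 2727. These genes were chosen after their values were seen, and the part of overlap in the level of Rpl30 was not tested. The library kit marks strand, per the study's methods, and the strand setting of the counting is not given in the sources used here, so levels of these genes are uncertain.

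The paralogs of standard genes were mostly lower than their standard copies. Rpl3l, the form that replaces Rpl3 in skeletal muscle and heart, had a base mean of 16.4 against 9502 for Rpl3, and their coding sequences were 73.1% identical. Rpl39l, known from the testis, had a base mean of 1.22 against 1053 for Rpl39. Rpl10l, the testis paralog of Rpl10, was listed at 0, as was Rpl26, so its 0 is not read as a level. Rpl7l1 had 318 per kilobase against 4289 for Rpl7, and Rps4l, annotated by RefSeq as a transcribed pseudogene, had 588 against 4329 for Rps4x. Rpl36a, at 2211 per kilobase, was 3.98 times as high as Rpl36al at 556, over transcripts of 483 and 1276 bases. Their coding parts both had 318 bases, of which 87.7% were identical, and over these the ratio was 1.51.

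Rpl22l1 and Rps27l stood above their standard copies per kilobase. Rpl22l1, whose mRNA is known to be restrained by the Rpl22 protein, had 1491 per kilobase and Rpl22 1006, a ratio of Rpl22 to Rpl22l1 of 0.675. The base means had the opposite order, 823 for Rpl22l1 and 2063 for Rpl22, since the annotated transcript of Rpl22 had 2051 bases and that of Rpl22l1 552. Over coding length Rpl22 was again the higher, with 5374 against 2248. Rps27l, a target of p53, had 399 per kilobase, and Rps27 47.7, on both lengths with Rps27l higher. Rps27l shared no window with another gene, and its level is set here against a copy that shared 98.4%.

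Retrotransposed copies and rows named as pseudogenes had lower base means than their standard copies. Rpl37rt had a base mean of 273 against 2414 for Rpl37, with 27.3% of its windows shared. Of the 9 rows with -ps, which the definition leaves out, 3 had a base mean of at least 10, and all 9 together summed to 0.694% of the sum of the 84 genes. Rpl14-ps1 alone had 1459, against 2592 for Rpl14, and shared 60.6% of its windows with it. Rps6-ps4 had 107 with 100% of its windows shared, so this value is not read as its own level. Rps19-ps3 had 23.4 with 7.95% shared.

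The genes next to the threshold were standard genes, paralogs and copies. Just inside stood Rps23rg1, a retrogene of Rps23, at a base mean of 12.9, then Rpl3l and Rps27, both at 16.4. Just outside stood Rpl30 at 3.11, Rpl39l at 1.22 and Rpl32l, a gene named for its likeness to Rpl32, at 1.21. Rpl10l, Rpl26 and Rps27rt, the other 3 rows of the pattern under 10, were listed at 0.

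Ribosomal proteins made as fusions, or with symbols outside the pattern, lay near the medians. Rps27a, made as a fusion with ubiquitin, had 4628 per kilobase. Fau, a fusion of a ubiquitin-like protein with a small subunit protein, had 3517. Rack1, a scaffold for signalling proteins on the small subunit, had 2248.

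The 75 standard genes lay on 19 chromosomes. Chromosome 7 held 14 of them, or 18.7%, against 7.70% of the expressed genes with a RefSeq place. The X chromosome held 4, Rpl10, Rpl36a, Rpl39 and Rps4x, with base means of 2972, 1068, 1053 and 4221.

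RefSeq promoters of the build GRCm38.p6, 250 bases before to 50 after each annotated start, matched 64 of the 84 genes. A pyrimidine run was taken as at least 5 bases of C or T in a row, read on the gene's strand from a C that lies within 10 bases of the annotated start. It was present in 38 of the 64, or 59.4%, with 22 of 38 in the large and 16 of 26 in the small subunit. The share was 37.0% of 12479 expressed genes with a promoter, and 34.4% of all 27018 genes with one. With runs of at least 8 bases the shares were 39.1% of the 64 genes and 10.5% of the 12479. The longest run, 20 bases from a C 4 bases before the start, was that of Rpl27a. Genes with several annotated starts count as having a run if any start has one.

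Genes with a run by the definition above were not the higher ones. The 34 standard genes with a run had a median of 2476 per kilobase, and the 22 without one 3703. The letters CCGGAAG, the core of sites for ETS factors, were found on either strand in 37.5% of the 64 promoters, against 17.3% of the expressed genes with a promoter and 9.93% of all genes with one. ATGGCG, the core of sites for YY1, was found in 29.7%, against 15.6% of the expressed and 10.2% of all genes. TATAAA, a core promoter element, was found in 10.9%, between the 8.97% of the expressed and the 15.7% of all genes. The 69 mitochondrial ribosomal protein genes with a promoter had CCGGAAG in 37.7% and ATGGCG in 27.5%. None of the 3 words contains another, the reverse strand of CCGGAAG can coincide with a pyrimidine run, and a match describes letters only.

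Start windows show how the run sits in the 4 genes of each subunit with the highest level per kilobase among those with a promoter entry, which Rplp1, Rpl3, Rpl8 and Rps29 lacked, from 15 bases before the annotated start to the 15 bases from it on. Capitals mark the longest run of a window, shorter runs stay in lower case, and a window without capitals has none by the definition above. For the large subunit they are chr11:98026695-98026724 on the plus strand for Rpl19 (the earlier of its 2 promoter entries), chr9:64173372-64173401 plus for Rpl4, chr10:128549154-128549183 minus for Rpl41 and chr5:65391417-65391446 minus for Rpl9.
Rpl19: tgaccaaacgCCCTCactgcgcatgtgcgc
Rpl4: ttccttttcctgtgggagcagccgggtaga
Rpl41: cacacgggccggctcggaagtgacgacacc
Rpl9: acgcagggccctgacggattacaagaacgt
Of these 4 only Rpl19 had a run by this definition, of 5 bases in the window shown and of 9 bases at its other start. The window of Rpl4 opens with a stretch of C and T. The Cs that begin a long enough run there lie farther from the annotated start than the definition allows. With a reach of 25 bases the share with a run rose from 59.4% to 81.2%, and in the expressed genes from 37% to 60.4%. A window without capitals may thus still hold a pyrimidine tract, and an offset of annotated starts was not tested.

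For the small subunit the windows are chr10:80292416-80292445 plus for Rps15, chr3:86142654-86142683 minus for Rps3a1, chr4:86857353-86857382 minus for Rps6 and chr7:3704026-3704055 plus for Rps9. The run of Rps6 had 10 bases and that of Rps9 had 8.
Rps15: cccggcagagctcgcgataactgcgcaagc
Rps3a1: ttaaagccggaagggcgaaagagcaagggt
Rps6: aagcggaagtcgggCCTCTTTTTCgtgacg
Rps9: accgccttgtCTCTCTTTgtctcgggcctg

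Windows of the low standard genes with a promoter are given beside them, chosen after their levels were seen. They are chr11:68901551-68901580 plus for Rpl26, chr3:90213634-90213663 minus for Rps27 and chr3:130730384-130730413 minus for Rpl34 (the first listed of its 2 promoter entries). Rps27 had a run of 9 bases and Rpl34 of 6 in the window shown and 13 at its other start, so a run was present in genes with a base mean of 16.4 and 25.9.
Rpl26: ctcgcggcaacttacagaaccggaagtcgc
Rps27: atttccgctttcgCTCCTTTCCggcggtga
Rpl34: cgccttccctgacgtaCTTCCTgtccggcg

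Genes that work with the ribosome were lower or more spread. The 78 mitochondrial ribosomal protein genes, whose ribosome translates the mitochondrial genome, had a median of 407 per kilobase, and the standard cytosolic genes were 7.20 times as high. They ranged from Mrps35 at 68.5 to Mrpl42 at 1435. The lowest base mean among the 78 was 225, that of Mrps28, so none was as low as Rps27 at 16.4. Genes under a base mean of 10 were left out of this set, so it cannot show a gene as low as Rpl30. The 25 ribosome assembly genes had a median of 282, from Wdr12, a factor of large subunit maturation, at 81.9 to Npm1, a nucleolar chaperone, at 1836.

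The list of 15 translation genes reached above the ribosomal proteins at its top. It held elongation and initiation factors, and also Pabpc1, Tpt1 and Naca. Eef1a1, which brings aminoacyl-tRNA to the ribosome, had 18752 per kilobase, and its form of neurons and muscle, Eef1a2, had 13670. Eif3e, a subunit of an initiation factor, was the lowest at 764, and the median was 1870. Among the 8 genes that control TOP mRNAs, the median was 271 per kilobase. Larp1, which binds the TOP motif, was the highest at 657, Mtor stood at 390, and Eif4ebp1, an inhibitor of the cap-binding protein, was the lowest at 17.1.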

How the data were processed

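RNA of 5 WT and 5 SOD1 G93A mice was sequenced as stranded mRNA libraries with paired reads of 100 bases. The authors filtered reads with Fastp, aligned them to mm10 with HISAT2 2.1.0, counted uniquely mapped reads with featureCounts 2.0.2 and scaled them with DESeq2. The deposited base mean, a signal without negative values, is the authors' mean over all libraries. The 5 other columns of the table hold the authors' own comparison of the genotypes (log2 fold change, standard error, test statistic, p-value and adjusted p-value) and were not used. The depth per library is unknown, and gene annotation and strand setting of the counting are not given in the sources used here.

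Members and lists were chosen with earlier results of these data known. Lengths came from GENCODE vM21 on GRCm38, with 1 transcript a gene (coding, basic set, best APPRIS rank, longest). Places and promoters came from RefSeq GRCm38.p6, which held 25030 of the 25232 symbols. 24355 had a GENCODE transcript. Shared windows compared hashes of 100 bases on the transcripts' own strand, and coding sequences were aligned globally with biopython 1.88. Functions were checked on simulated data. Named genes were the 5 highest and 5 lowest per kilobase of each subunit, paralogs with their standard copies, stalk and fusion genes, genes beside the threshold and the extremes of each other list; the others named were chosen after their values were seen. Some genes are not reported here. No test was run.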

Additional observations from a re-analysis of the deposited data

How the results depend on the processing

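No paired analysis was possible because the values used are means over all libraries, and for the same reason leaving out a replicate and a test between the genotypes were not run. The number of genes, 84, was 87 at a minimum base mean of 1 or above 0, 80 at a minimum of 100 and 75 on the standard list, all within 1.5 times. The share of all base means, 1.05%, was 1.03% on the standard list, and 1.05% with the -ps rows. On the standard list it was 0.593% in the large and 0.437% in the small subunit. With Fau and Rack1, an alternative chosen after seeing the data in place of a planned one that was not run, the share was 1.07% in all and 0.467% in the small subunit.

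The median per kilobase was higher in the small than in the large subunit under each length and selection tried. The large and small medians were 5428 and 5870 over coding length (ratio 0.925), 2343 and 2727 without length (0.859), 2567 and 3119 at a minimum base mean of 100 (0.823), and 2608 and 3497 on the standard list (0.746). Chosen after seeing the data, the median length of each gene's coding transcripts gave 3005 and 3983 (0.754), and standard genes with at most 50% of windows shared, 29 large and 21 small, gave 2330 and 3497 (0.666). A coding sequence is shorter than its transcript, so values over coding length are higher by construction. Against all expressed genes the large and small medians were 4.56 and 5.31 times as high without length, and 14 and 15.1 times over coding length.

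The share of genes with a pyrimidine run, 59.4%, was 62.5% for runs of at least 4, 39.1% for at least 8, 46.9% within 5 bases of the start and 81.2% within 25. In the expressed genes these shares were 54.5%, 10.5%, 23.6% and 60.4%, so the difference was smallest for runs of at least 4.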

Other observations

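The relation between shared sequence and a value of 0 was also counted over all protein-coding genes of the table, as a description. Of 16279 genes with no shared 100-base window, 7.78% were listed at 0. Of 3309 genes with up to 50% of windows shared it was 30%, of 528 genes with over 50% and up to 90% it was 39.6%, and of 335 genes with over 90% it was 73.7%. Rps27 is in the last of these sets with a base mean of 16.4, and Rpl26 is among the genes with up to 50%. What else the genes of each set share, such as the tissue in which they are used, was not tested.

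The globin genes Hba-a1, Hbb-bs and Hbb-bt, listed at 0, shared 56.5%, 62.6% and 54.8% of their windows. No level of blood RNA in these libraries is therefore given.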
